A study of Mus musculus with 12 samples.

Results

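The 40 genes described here are interferon-stimulated genes of the mouse, measured in C2C12 cells, a myoblast line from C3H mouse muscle that fuses into myotubes when serum is lowered. They were taken by name, from a list drawn up with earlier results of these data known. Every probe that the deposited gene table assigned to 1 of the 40 symbols was taken, which gave 68 probes for the 40 genes, of 27306 named genes on the array. The cells were transfected with an siRNA against the transcription repressor Bach1 (siBach1) or with a negative-control siRNA (siControl), and RNA was taken from confluent cells on day 0 or on day 2 of culture in medium with little horse serum. Each of the 4 conditions had 3 one-colour arrays. All 12 arrays thus came from 1 cell line that carried a transfected siRNA, and 1 siRNA stood for Bach1 silencing. The comparisons asked how the members changed in differentiation, in each of the siRNA treatments, and how silencing changed them on each day.

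Type I interferons are secreted proteins that bind the receptor made of Ifnar1 and Ifnar2. The receptor's kinases phosphorylate Stat proteins, Stat2 among them, which join Irf9 and bind a short element, the interferon-stimulated response element, in the promoters of target genes. The products of these genes sense foreign RNA, block translation or virus entry, tag proteins with the ubiquitin-like protein Isg15, or feed back on the pathway. In muscle, their joint rise is known as the interferon signature of dermatomyositis.

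Levels are given as log2 of the processed signal minus the 75th percentile of the same array, so that 0 is the signal of the array's 75th percentile probe. A difference of 1 between levels is a factor of 2. The siBach1 arrays carried the change their labels name: the siBach1 minus siControl difference in level was -1.77 on day 0 and -1.97 on day 2 for Bach1, and that of Hmox1, a gene repressed by Bach1, was 3.30 and 3.12. Of 14 tested muscle markers, 12 rose from day 0 to day 2 in both treatments. The log2 of the summed level of all 15 muscle markers lay between 6.85 and 7.24 on the day 0 arrays, between 11.29 and 11.37 in siControl on day 2 and between 10.67 and 10.91 in siBach1 on day 2. A probe is called detected on an array where the extraction software flagged it as well above background, which held for between 47.6% and 58.9% of probes. Precision is limited by there being 3 arrays per condition. The labels call the 3 arrays of a condition repeats without naming separate cultures, so p-values measure the spread between these samples, which may be technical.

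Of the 40 members, 33 could be tested, because they had a probe detected on every array of 1 condition or more. The other 7 stayed at or near background and got no test: the RNA sensors and binding proteins Oas2, Oas3 and Dhx58, the GTPase Mx1, and Rsad2, Ifi44 and Cmpk2. No probe of Oas3 or Mx1 was detected on any array. The best probe of Oas2 was detected on 2 arrays, both siControl on day 2, and that of Ifi44 on 1 array, again siControl on day 2. For Rsad2, which encodes viperin, the better probe passed on 2 siControl arrays on each day, on 1 siBach1 array on day 0 and on 0 siBach1 arrays on day 2. Among the 33 tested members, 20 were detected on all 12 arrays and 13 on fewer. Usp18, Oas1a and Ifit1 entered the test only because of siControl on day 2, Mx2, Parp14 and Zbp1 only because of day 2, and Herc6 only because of day 0. These 7 had to differ between conditions, so their changes are descriptions whatever their p, and the 20 members detected on all 12 arrays are counted separately for that reason.

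Promoter letters describe what several of these genes share. The response element is a known trait of interferon-stimulated genes, so a high share was built into the choice of names and is no test of it. RefSeq promoters (GRCm38.p6, 250 bases before to 50 after the start) were found for 30 of the 40 members. The core of the response element, searched on both strands as GAAA, any 2 bases and GAAA again, was present in 15 of these 30 genes, against 3.99% of all 27025 genes with a promoter in the table. The stretches below come from 4 members that were lower in siBach1 on day 2 (Isg15, Ifit1, Ifit3 and Oas1a) and from 2 that rose in differentiation and had no such call (Igtp and Gbp2). All lie before the start of the gene and read in its direction, and capitals mark the motif, with overlapping copies joined.
Isg15, chr4:156200855-156200916, minus strand: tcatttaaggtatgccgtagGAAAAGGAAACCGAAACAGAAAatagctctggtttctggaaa
Ifit1, chr19:34640784-34640833, plus strand: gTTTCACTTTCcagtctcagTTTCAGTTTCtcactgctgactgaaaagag
Ifit3, chr19:34583387-34583436, plus strand: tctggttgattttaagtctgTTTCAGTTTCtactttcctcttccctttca
Oas1a, chr5:120907526-120907565, minus strand: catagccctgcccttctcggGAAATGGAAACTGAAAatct
Igtp, chr11:58199502-58199551, plus strand: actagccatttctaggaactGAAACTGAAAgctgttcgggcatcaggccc
Gbp2, chr3:142620584-142620633, plus strand: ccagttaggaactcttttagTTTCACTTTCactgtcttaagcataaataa
The motif was thus present both in members that were lower in siBach1 and in members that were not: it was in 4 of the 6 genes of the first kind with a promoter in the table, and in 5 of 12 members that rose in siControl cells without being lower in siBach1 on day 2. It was also in 4 of 8 tested members called in neither direction between days in siControl cells, in 2 of 4 untested members and in 0 of 2 that fell. Ifit2 and Irf7 had no copy in these windows. A match is a description of the letters and not of binding.

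In siControl cells most members rose between day 0 and day 2. Of 33 tested, 23 rose and 2 fell (adjusted p under 0.05 and at least 2-fold), while 11.9% of all 15642 tested genes rose and 9.6% fell. The median log2 change was 1.60 for the members and 0.01 for all tested genes. Among the 20 members detected on all 12 arrays, 13 rose and 0 fell, with a median of 1.29. In siBach1 cells 16 of 33 rose and 2 fell, against 12.3% and 9.59% of all genes, with a median of 0.99 for the members and -0.06 for all genes, and 10 of the 20 rose and 0 fell. The 16 that rose in siBach1 cells had all risen in siControl cells. With normexp background correction 17 members rose in siControl and 12 in siBach1 cells, and 0 fell. The calls lost in siControl were those of Ifit1, Stat2, Mx2, Gbp3, Parp9, Rtp4, Oasl1 and Herc6, and those lost in siBach1 were those of Ifit3, Oasl1, Mx2, Bst2, Parp9 and Herc6, with log2 changes below 1 in size in each case. Muscle markers moved with the day as well, and their part in the change of the members was not tested.

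**Figure D1:**
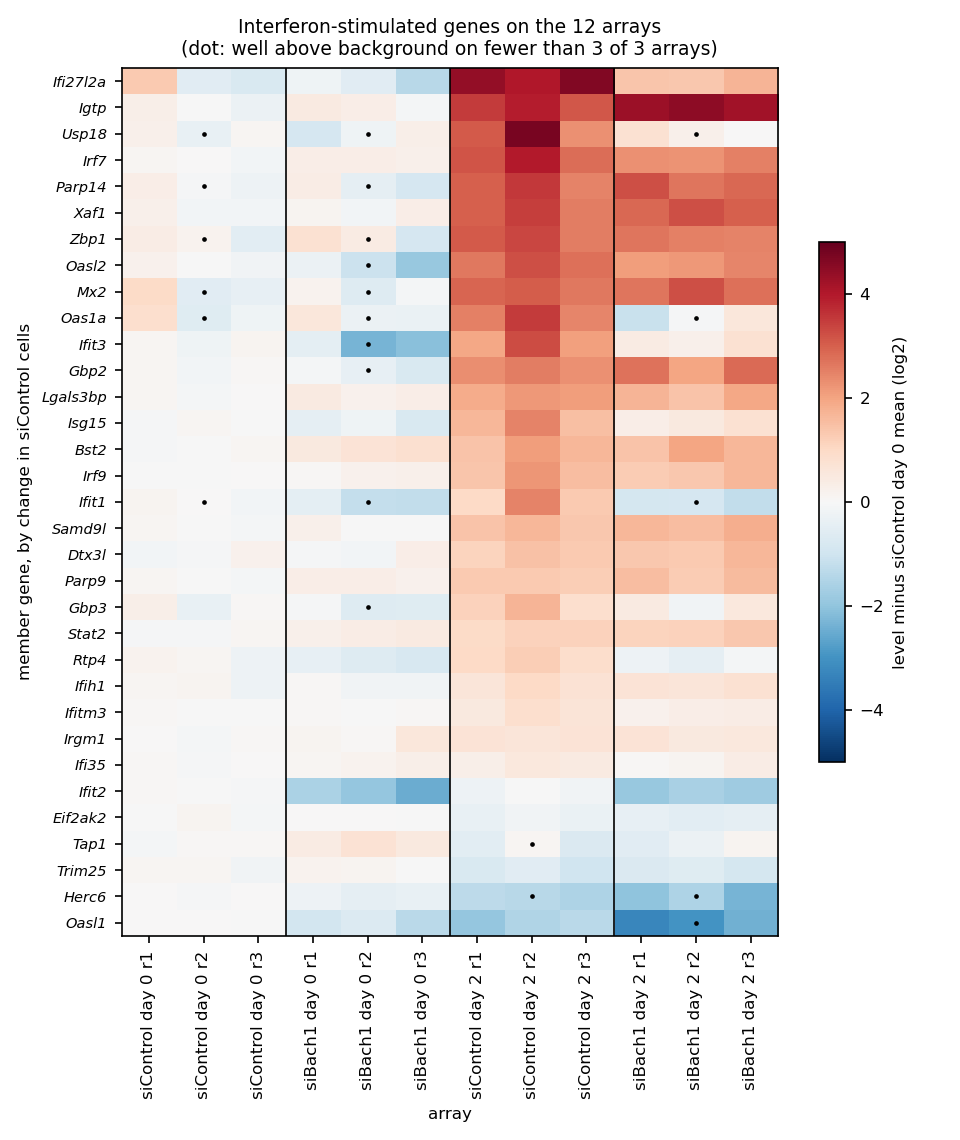
Level of the 33 tested members (rows, ordered by their change in siControl cells) on each of the 12 arrays (columns), as the log2 difference from the member's own siControl day 0 mean. Red is higher and blue lower, and a black dot marks a condition with fewer than 3 of 3 arrays well above background. The upper rows are red on all day 2 arrays, and siControl day 2 replicate 2 was the highest of its 3 arrays for 27 of the 33 members.

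The transcription factors that read the interferon signal were among the members that rose. Irf7, the factor that amplifies interferon production, had levels of -2.07, -2.13 and -2.28 in siControl on day 0 and 0.97, 1.81 and 0.64 on day 2. In siBach1 the levels were -1.82, -1.81 and -1.89 on day 0 and 0.12, 0.08 and 0.37 on day 2. The days did not overlap in either treatment, and the change was 3.30 ± 0.24 (SE, adjusted p = 1.6e-06) in siControl and 2.03 ± 0.24 (adjusted p = 4.0e-05) in siBach1 on the log2 scale. A second Irf7 probe, detected on 0 siControl arrays of day 0, also rose, at least 2.59-fold in siControl and by 1.31 on the log2 scale in siBach1.

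Irf9, the DNA-binding partner of Stat2, stood at -1.13, -1.13 and -1.09 in siControl on day 0 and at 0.28, 1.09 and 0.42 on day 2. It rose by 1.71 ± 0.19 in siControl and 1.25 ± 0.19 in siBach1 cells (adjusted p = 2.8e-05 and 0.00024), with no overlap of the days. Stat2 went from 0.97, 0.98 and 1.12 to 1.98, 2.16 and 2.19 in siControl, a rise of 1.09 ± 0.10, and its change in siBach1 was 0.84 ± 0.10 (adjusted p = 3.8e-05), which passed the test but not the 2-fold limit. A second tested Stat2 probe gave 0.81 and 0.32 (adjusted p = 0.026 and 0.34), and with the mean of both probes the siControl change was 0.95, under the 2-fold limit.

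Usp18, which removes Isg15 from proteins and dampens signalling at the receptor, was detected on the 3 siControl arrays of day 2 alone. Its levels there were -3.20, -1.55 and -3.99, and its mean was -6.28 in siControl on day 0, -6.53 in siBach1 on day 0 and -5.95 in siBach1 on day 2. Since the probe was detected on 0 of those 9 arrays, the rise in siControl cells was at least 3.31-fold, and replicate 2 of siControl on day 2 stood above the other 2. The adjusted p of 0.00035 is that of the fitted change and not of this bound. Usp18 entered the test only because of siControl on day 2, so its rise is a description whatever its p.

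Isg15 and the genes of ubiquitin-like and ADP-ribose tagging showed both patterns. The Isg15 level was 0.29, 0.46 and 0.35 in siControl on day 0 and 2.01, 2.83 and 1.88 on day 2, a rise of 1.87 ± 0.24 (adjusted p = 7.2e-05). In siBach1 it went from -0.07, 0.17 and -0.38 to 0.69, 0.87 and 1.14, a change of 0.99 ± 0.24 (adjusted p = 0.0045) that lay just under the 2-fold limit. The days did not overlap in either treatment. Parp14, an ADP-ribosyltransferase, was detected on 1 of 3 day 0 arrays in each treatment and on every day 2 array, and rose by 3.01 ± 0.33 in siControl and 3.22 ± 0.33 in siBach1 cells. Parp14 entered the test only because of day 2, so its rise is a description. Parp9 and its partner, the ubiquitin ligase Dtx3l, rose by 1.28 and 1.30 in siControl and by 1.16 and 1.40 in siBach1. A second tested Parp9 probe gave 0.40 and -0.05 (adjusted p = 0.51 and 0.94), so the probes of this gene did not agree, and with their mean Parp9 was called in neither treatment.

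Herc6, the ligase that attaches Isg15 in the mouse, went the other way. Its levels in siControl were -2.46, -2.52 and -2.44 on day 0 and -3.78, -3.86 and -4.00 on day 2, with no overlap, and it fell by 1.41 in siControl and by 1.59 in siBach1 cells on the log2 scale (adjusted p = 4.0e-05 and 1.6e-05). With normexp the Herc6 changes were -0.38 and -0.57, under the 2-fold limit. Herc6 entered the test only because of day 0, so its fall is a description whatever its p. Trim25, a ubiquitin ligase of RNA sensing, changed by -0.77 ± 0.13 and -0.84 ± 0.13 on the probe with the highest reading, and a further tested probe gave -0.48 and -0.94 (adjusted p = 0.0014 and 1.4e-05), while another gave 0.18 and 0.19 (adjusted p = 0.20 and 0.18).

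Of the 6 tested RNA sensors and binding proteins, 3 rose in siControl cells and 1 fell, against 11.9% and 9.6% of all tested genes. Zbp1, a sensor that starts necroptosis, went from -3.17, -3.36 and -4.05 to -0.45, -0.18 and -0.97, and rose by 2.99 ± 0.38 in siControl and 2.44 ± 0.38 in siBach1. Oasl2 rose by 2.88 ± 0.34 and 3.32 ± 0.34. Oas1a, an enzyme that binds double-stranded RNA, had levels of -4.10, -5.53 and -5.14 in siControl on day 0 and -2.41, -1.44 and -2.49 on day 2. It rose by 2.81 ± 0.50 in siControl (adjusted p = 0.00071), while in siBach1 the levels of both days overlapped and the change was -0.18 ± 0.50 (adjusted p = 0.79). The probe was detected on all 3 arrays in siControl on day 2 and on 1 array in each other condition. Zbp1 entered the test only because of day 2, and Oas1a only because of siControl on day 2, so their changes are descriptions whatever their p.

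Oasl1, a relative of Oas1a that holds back Irf7 translation, fell in both treatments. Its siControl levels were -1.80, -1.81 and -1.84 on day 0 and -3.76, -3.32 and -3.15 on day 2, a difference of -1.60 ± 0.24 (adjusted p = 0.00023), and the difference in siBach1 was -1.89 ± 0.24 (adjusted p = 6.8e-05). With normexp these were -0.63 and -0.64, under the 2-fold limit. Ifih1, the RNA sensor MDA5, changed by 0.77 ± 0.13 in both treatments, which passed the test but not the 2-fold limit, and Eif2ak2, the kinase PKR, changed by -0.29 and -0.47.

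Interferon-inducible GTPases act on the membranes around pathogens or on viral particles. Of the 5 tested, 4 rose in siControl and 3 in siBach1 cells, against 11.9% and 12.3% of all tested genes. Igtp (also called Irgm3) went from -2.70, -3.01 and -3.30 to 0.48, 0.93 and 0.11 in siControl and from -2.56, -2.68 and -3.12 to 1.27, 1.48 and 1.18 in siBach1. It rose by 3.51 ± 0.23 and 4.09 ± 0.23 (adjusted p = 8.3e-07 and 3.2e-07), with no overlap of the days. Gbp2 rose by 2.40 ± 0.22 and 2.92 ± 0.22, and Gbp3 by 1.25 ± 0.27 in siControl, with a change of 0.71 ± 0.27 in siBach1 (adjusted p = 0.046) under the 2-fold limit. Mx2 rose by 2.86 ± 0.37 in siControl, where its probe was detected on 1 day 0 array. In siBach1, where it was detected on 0 day 0 arrays, it rose by at least 2.55-fold (adjusted p of the fitted change = 4.5e-05). Mx2 entered the test only because of day 2, so its rise is a description whatever its p. Irgm1 changed by 0.66 ± 0.12 in siControl (adjusted p = 0.0010), under the 2-fold limit.

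Of 8 tested members with other effector roles, 6 rose in siControl and 5 in siBach1 cells, against 11.9% and 12.3% of all tested genes. Among them were Ifi27l2a, a small membrane protein gene, and Xaf1, a pro-apoptotic gene. Ifi27l2a went from -1.02, -2.91 and -3.11 to 2.04, 1.64 and 2.30 in siControl, which was 20.3-fold (log2 change 4.34 ± 0.49, adjusted p = 3.4e-05), and from -2.57, -2.90 and -3.74 to -0.96, -1.0 and -0.64 in siBach1, which was 4.60-fold (2.20 ± 0.49, adjusted p = 0.0031). One siControl day 0 array stood above the other 2 without reaching the day 2 levels. Lgals3bp rose by 2.03 and 1.34, Bst2, which tethers budding virus, by 1.73 and 1.02, and Samd9l by 1.47 and 1.60. Xaf1 rose by 3.0 ± 0.22 and 2.92 ± 0.22, from -0.91, -1.32 and -1.29 to 1.80, 2.28 and 1.40 in siControl and from -1.06, -1.30 and -0.83 to 1.70, 2.06 and 1.81 in siBach1.

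Other members were read at high levels throughout and changed little. Ifitm3, which blocks virus entry, had levels between 5.33 and 5.41 on the siControl arrays of day 0 and between 5.85 and 6.20 on those of day 2, a change of 0.66 ± 0.09, and its change in siBach1 was 0.28 ± 0.09. Ifi35 changed by 0.42 ± 0.10 in siControl (adjusted p = 0.0050) and by -0.00 ± 0.10 in siBach1 (adjusted p = 0.99). A reading depends on the probe, so these levels do not rank the transcripts.

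**Figure D2:**
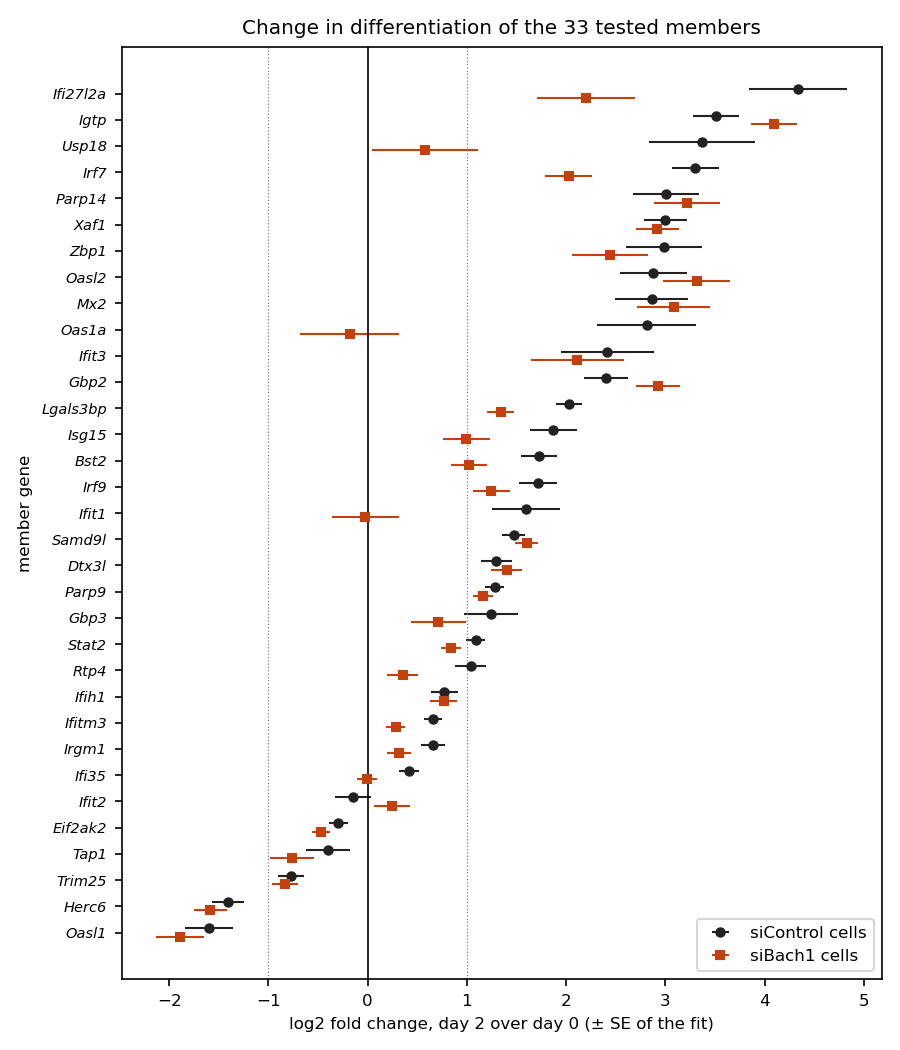
Log2 fold change from day 0 to day 2 of the 33 tested members (rows), in siControl cells (black circles) and siBach1 cells (orange squares), with bars for the standard error of the fit and dotted lines at 2-fold. Circles lie right of the 2-fold line for 23 members and left of the lower line for Oasl1 and Herc6. Usp18, Oas1a and Ifit1 have a circle to the right and a square nearer 0, while the marks of Xaf1, Parp14 and Mx2 lie close together; fitted values of Usp18, Ifit1 and Mx2 are open to the background where the probe was not detected.

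Few members passed the test of Bach1 silencing on day 0. There 2 of 33 members were lower in siBach1 and 0 higher, against 2.24% and 0.901% of all tested genes, and at an adjusted p under 0.05 with no fold limit 4 were lower and 2 higher, against 9.85% and 10.1%. The medians were 0.01 for the members and 0.08 for all tested genes. The lower members were Ifit2 and Ifit3, of the family that binds viral RNA and blocks its translation.

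More members passed on day 2. Of 33 members, 9 were lower in siBach1 and 0 higher, against 0.78% and 1.78% of all tested genes, and at an adjusted p under 0.05 with no fold limit 12 were lower and 1 higher, against 7.4% and 6.38%. The median was -0.29 for the members and -0.03 for all tested genes. The groups did not overlap for 15 members lower and 1 higher in siBach1, against 19% and 15.6% of all genes. Of the 20 members detected on all 12 arrays, 4 were lower (Ifi27l2a, Ifit2, Isg15 and Rtp4) and 0 higher. The comparison uses the same siControl arrays of day 2 as the comparison of days, so a member that stood high on them enters both. With normexp 6 of the 9 were called, and Usp18, Ifit1 and Oasl1 had changes of -0.93, -0.77 and -0.47, under the 2-fold limit. With the methods' t-test after adjustment Ifi27l2a, Ifit2 and Rtp4 were called and the other 6 were not (adjusted p between 0.073 and 0.12). Genes of like function were split: all 3 Ifit genes were lower, while none of the 5 tested GTPases and none of Xaf1, Parp14, Parp9 and Dtx3l was called lower. Of 14 tested muscle markers, 5 were also lower in siBach1 on day 2 at an adjusted p under 0.05, 1 of them by 2-fold or more, and the part of this in the change of the members was not tested.

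**Figure D3:**
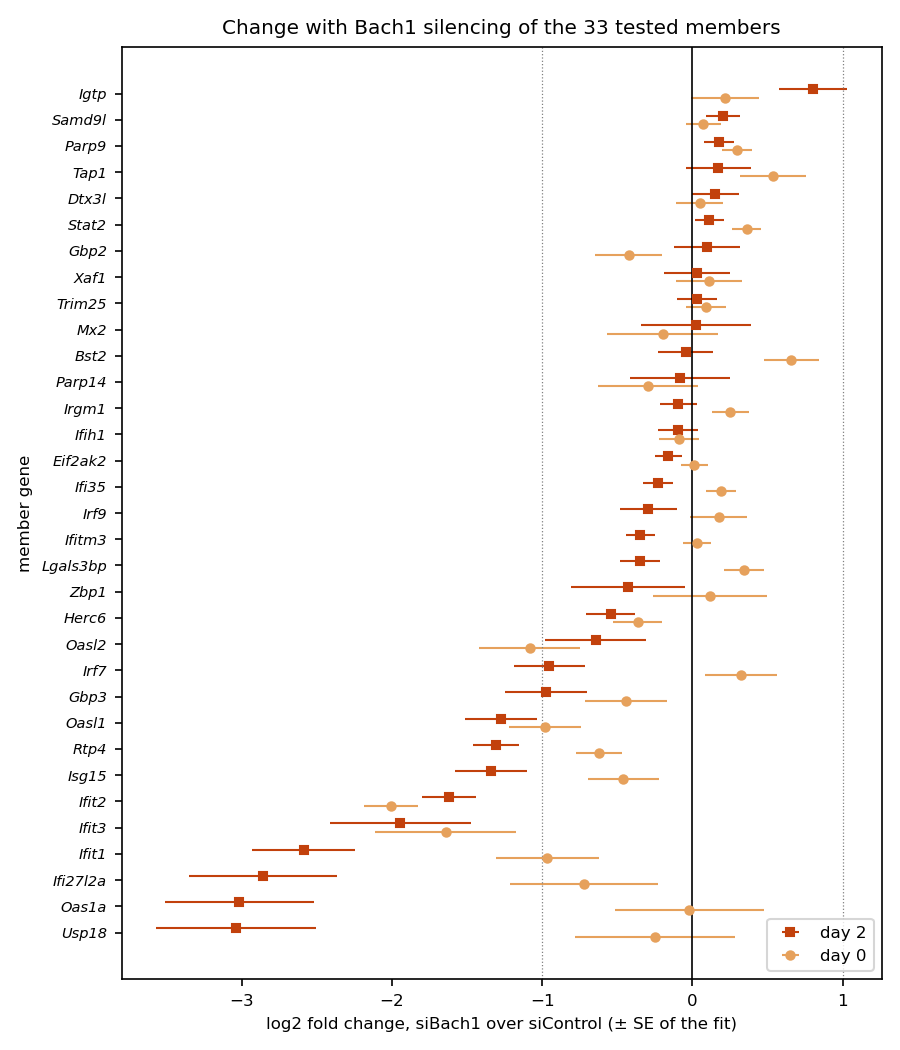
Log2 fold change of siBach1 over siControl for the 33 tested members (rows), on day 2 (squares) and day 0 (circles), with bars for the standard error of the fit and dotted lines at 2-fold. On day 2, 9 members lie left of the 2-fold line, from Oasl1 to Usp18, and most of the others lie nearer 0, with the values of Usp18 and Ifit1 open to the background as above. Ifit2 and Ifit3 are left of that line on both days.

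The 3 Ifit genes were lower on day 2 and differed in how they behaved on day 0. Ifit2 levels were -1.20, -1.27 and -1.31 in siControl and -2.86, -3.21 and -3.73 in siBach1 on day 0, and -1.5, -1.28 and -1.43 against -3.16, -2.89 and -3.03 on day 2. It was lower in siBach1 on both days, 4.02-fold on day 0 (log2 change -2.01 ± 0.18, adjusted p = 7.8e-05) and 3.07-fold on day 2 (-1.62 ± 0.18, adjusted p = 0.00066), with no overlap, and it did not pass the test between days in either treatment (adjusted p = 0.53 and 0.29). The difference between the silencing changes of the days was 0.39 ± 0.26 (adjusted p = 0.43).

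Ifit3 rose in differentiation, by 2.42 ± 0.47 in siControl and 2.11 ± 0.47 in siBach1. Its levels were -3.94, -4.25 and -3.90 in siControl and -4.53, -6.37 and -6.13 in siBach1 on day 0, where it was detected on 1 siBach1 array. On day 2 they were -2.10, -0.77 and -1.98 against -3.61, -3.79 and -3.28. The groups did not overlap on either day, and the changes were -1.64 ± 0.47 (adjusted p = 0.037) and -1.94 ± 0.47 (adjusted p = 0.025). The day 0 call was lost when any of 7 arrays was left out in turn, and the day 2 call without siControl day 2 replicate 2 or without siBach1 day 2 replicate 1 or 2, with adjusted p up to 0.12 on day 0 and 0.076 on day 2 over the arrays left out. With normexp background correction the Ifit3 change in siBach1 on day 0 was -0.17 (adjusted p = 0.566) and its rise in siBach1 cells was 0.40 (adjusted p = 0.109), so neither passed.

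Ifit1 levels on day 2 were -3.75, -2.25 and -3.42 in siControl and -5.63, -5.57 and -5.97 in siBach1, where the probe was detected on 0 arrays. The siControl level was therefore at least 2.77-fold higher (adjusted p of the fitted change = 0.0015). On day 0 the probe was detected on 1 siControl array and 0 siBach1 arrays, and no fold is given. In siControl cells it rose by 1.60 ± 0.34 (adjusted p = 0.0025) from day 0 to day 2, and in siBach1 cells it was detected on neither day. Ifit1 entered the test only because of siControl on day 2, so its changes are descriptions whatever their p.

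Usp18 and Oas1a were read in siControl on day 2 and close to background elsewhere. They entered the test only because of that condition, so their changes are descriptions. For Usp18 the siControl level on day 2 was at least 3.24-fold above that in siBach1 (adjusted p of the fitted change = 0.0061). Oas1a levels on day 2 were -2.41, -1.44 and -2.49 in siControl and -6.02, -5.0 and -4.37 in siBach1, with no overlap, a change of -3.02 ± 0.50 (adjusted p = 0.0044), while on day 0 the groups overlapped and the change was -0.02 ± 0.50 (adjusted p = 0.98).

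Isg15, Ifi27l2a and Rtp4 were detected on all 12 arrays. Ifi27l2a was 7.26-fold lower in siBach1 on day 2 (-2.86 ± 0.49, adjusted p = 0.0056), with siBach1 levels of -0.96, -1.0 and -0.64 against 2.04, 1.64 and 2.30. Isg15 was 2.53-fold lower (-1.34 ± 0.24, adjusted p = 0.0062). Rtp4, a receptor-transporting protein gene, had levels of -0.02, 0.23 and -0.16 in siControl and -1.27, -1.47 and -1.14 in siBach1, and was 2.48-fold lower (-1.31 ± 0.16, adjusted p = 0.00091). None of these 3 genes overlapped between the groups on day 2.

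On day 0 none of the 3 was called, and the difference between the days passed the test for none (adjusted p = 0.11 for Ifi27l2a, 0.16 for Isg15 and 0.10 for Rtp4). Ifi27l2a overlapped between the groups, with a change of -0.72 ± 0.49 (adjusted p = 0.36). Isg15 did not overlap but missed the test (-0.46 ± 0.24, adjusted p = 0.22), and Rtp4 passed it below the 2-fold limit (-0.62 ± 0.16, adjusted p = 0.021).

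Oasl1 was lower in siBach1 although it fell in differentiation. Its siBach1 levels were -2.73, -2.50 and -3.17 on day 0 and -5.07, -4.80 and -4.21 on day 2, below all siControl levels of the same day. The changes were -0.98 ± 0.24 on day 0 (adjusted p = 0.019, just under the 2-fold limit) and -1.28 ± 0.24 on day 2 (adjusted p = 0.0082). A second probe, detected on the siControl arrays of day 0 alone, was at least 1.33-fold higher in siControl than in siBach1 on day 0 (adjusted p = 0.040). With the mean of both probes the Oasl1 change on day 2 was -0.88, under the 2-fold limit.

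**Figure D4:**
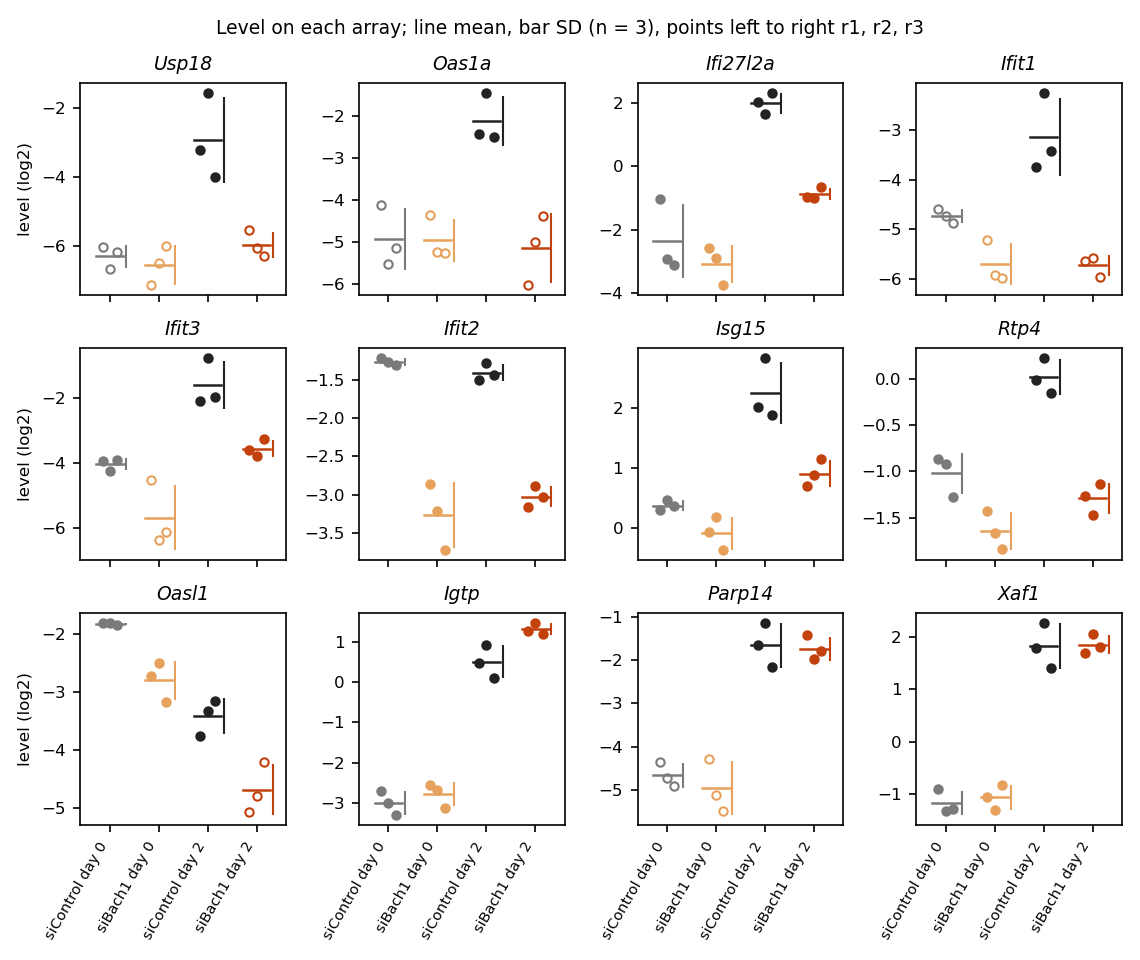
Level on each array (points, replicates 1 to 3 from left to right), mean (line) and SD (bar, n = 3) for the 9 members that were lower in siBach1 on day 2 and for Igtp, Parp14 and Xaf1, which rose in differentiation without being lower. Open points mark conditions in which the probe was detected on fewer than 3 of 3 arrays. The highest siControl day 2 point is replicate 2 for 7 of the 9 (Usp18, Oas1a, Ifit1, Ifit2, Ifit3, Isg15 and Rtp4) and for Igtp, Parp14 and Xaf1.

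Members that rose in differentiation were thus not all lower in siBach1. Of the 23 that rose in siControl cells, 7 were lower in siBach1 on day 2, and 11 had a day 2 silencing change within 0.35 of 0 on the log2 scale. For Xaf1 this change was 0.03 ± 0.22, for Mx2 0.02 ± 0.37, for Parp14 -0.08 ± 0.33 and for Stat2 0.11 ± 0.10. The silencing changes of Irf7 and Gbp3 were -0.95 ± 0.24 and -0.97 ± 0.27 (adjusted p = 0.028 and 0.044), just under the 2-fold limit. A second tested Irf7 probe gave -0.66 (adjusted p = 0.22). Irf7 did not pass with the mean of its probes or with the methods' t-test, and passed in 9 of 12 fits with 1 array left out. Igtp was the 1 member higher in siBach1 at an adjusted p under 0.05, with 0.80 ± 0.23 (adjusted p = 0.047), and its call was lost without any of 9 arrays in turn.

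The test of the difference itself, the silencing change on day 2 minus that on day 0, was passed by 1 of 33 members in the lower direction and 0 in the higher, against 0.569% and 1.18% of all tested genes. That member was Oas1a, with -2.99 ± 0.70 (adjusted p = 0.041). It entered the test only because of siControl on day 2, so this call is a description whatever its p. This call held without siControl day 0 replicate 1 or siBach1 day 2 replicate 3 and was lost without any 1 of the other 10 arrays. For other members the difference between days did not pass: Usp18 missed the threshold (adjusted p = 0.065), as did Ifit1 (adjusted p = 0.086), and Ifi27l2a had -2.14 ± 0.70 (adjusted p = 0.11) and Irf7 -1.28 ± 0.34 (adjusted p = 0.059). The median over the members was -0.30, and -0.07 over all tested genes. A p that misses the threshold does not show that the days were alike. With the replicate number as a block Irf7 passed beside Oas1a (adjusted p = 0.043), and with the slide as a block Irf7, Ifit1 and Usp18 did (adjusted p = 0.036, 0.046 and 0.044). Ifit1 and Usp18, like Oas1a, entered the test only because of siControl on day 2. With normexp Ifi27l2a and Irf7 passed beside Oas1a (adjusted p = 0.0086 and 0.032).

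In each condition 1 array was the highest for most members. On day 0 this was replicate 1, for 22 of 33 members in siControl and 21 in siBach1. In siBach1 on day 2 it was replicate 3, for 20. The share of all tested genes was taken only for siControl on day 2. Replicate 2 of siControl on day 2 was the highest of its 3 arrays for 27 of the 33 members, 81.8%, against 32.6% of all tested genes, and lay above the mean of the other 2 by a median of 0.33 over the members and -0.00 over all genes. For the members lower in siBach1 it was the highest in 7 of 9. Without it the day 2 comparison still called 9 members, 8 of them among the original 9, with Ifit3 lost and Igtp gained as higher. Within each slide, all 9 were lower in siBach1, on the slide with 2 arrays per condition and on that with 1. This had to be so, because the groups did not overlap on day 2 for any of the 9, and it adds no support. Each condition also had a position of its own on both slides, so position and condition cannot be told apart.

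Genes upstream of the members were set against the same shares of all tested genes. Of 18 interferon genes 16 were on the array and 7 could be tested, 0 of which were called with silencing on either day. Of all tested genes, 2.24% were lower and 0.901% higher with silencing on day 0, and 0.78% and 1.78% on day 2. At such shares, 0 of 7 is no result about these genes. Probes of Ifna1, Ifna5, Ifna9, Ifna14, Ifnab and Ifnl3 were detected on all 12 arrays. Of these genes Ifnab alone passed a test between days, with 0.63 in siControl (adjusted p = 0.023), under the 2-fold limit. Its second tested probe gave -0.19 (adjusted p = 0.38). Ifnb1, the interferon made by most cell types, was detected on 1 of 12 arrays, in siBach1 on day 0. Ifng, interferon gamma, was detected on 5 arrays, all of day 2, and rose in both treatments (at least 1.65-fold and 2.21-fold, adjusted p = 0.039 and 0.0039). Of 9 tested receptor and JAK-STAT genes, 1 was called higher and 0 lower on day 2 in each treatment. Of all tested genes, 11.9% rose and 9.6% fell in siControl, and 12.3% and 9.59% in siBach1. The gene called was Stat3, which rose by 1.5 and 1.14 on the log2 scale. With silencing 0 of the 9 were called, which is likewise no result at the shares above. At an adjusted p under 0.05 with no fold limit, 3 of the 9 were higher on day 0 and 1 on day 2, and 0 lower. Of all tested genes, 10.1% and 6.38% were higher and 9.85% and 7.4% lower. The kinase gene Tyk2 was higher on both days, by 0.61 and 0.70 (adjusted p = 0.0010 and 0.0011), under the 2-fold limit. Its second tested probe gave 0.01 and 0.38 (adjusted p = 0.99 and 0.50). The receptor gene Ifnar1 changed by 0.18 and 0.30 in differentiation (adjusted p = 0.62 and 0.38), and Ifnar2 by 0.67 and 0.56 (adjusted p = 7.1e-05 and 0.00025), under the 2-fold limit.

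Few sensors, regulatory factors and inhibitors were called, and their counts are to be read against the 11.9% of all genes that rose and 9.6% that fell in siControl cells. Of 12 tested sensors, adaptors and kinases, 1 rose and 1 fell in siControl cells: Ddx58, the RNA sensor RIG-I, rose by 1.34 in siControl and 1.15 in siBach1, and Mb21d1, the DNA sensor cGAS, fell by 1.86 and by 1.48 on the log2 scale. Of 5 tested regulatory factors outside the members, Irf5 was at least 2.82-fold lower in siControl and 1.81-fold lower in siBach1 on day 2 than on day 0 (adjusted p = 0.0026 and 0.022), and Irf1 changed by 0.92 and 0.70, which passed the test but not the 2-fold limit. Of 12 tested inhibitors of the pathway, Socs1 fell in both, with -1.63 and -1.95.

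Some antigen presentation genes rose. Tap1, the member that pumps peptides to class I molecules, changed by -0.40 ± 0.22 in siControl (adjusted p = 0.15) and -0.76 ± 0.22 in siBach1 (adjusted p = 0.013). Of 13 further class I and immunoproteasome genes, 4 rose in siControl and 3 in siBach1 cells, against 11.9% and 12.3% of all tested genes. The immunoproteasome subunit gene Psmb8, detected on 0 day 0 arrays, rose at least 1.91-fold and 2.01-fold, and Tap2 rose by 1.47 and 1.07 on the log2 scale. None of the 13 was called with silencing on either day. Of all tested genes, 2.24% were lower and 0.901% higher on day 0, and 0.78% and 1.78% on day 2.

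Of 31 further tested interferon-stimulated genes, 8 rose in siControl and 5 in siBach1 cells, against 11.9% and 12.3% of all tested genes, and 0 fell, against 9.6% and 9.59%. Irgm2 and Phf11d, like Psmb8 and Ifng, entered the test only because of day 2, and Irf5 only because of day 0. Irgm2, a GTPase gene related to Igtp, rose by 3.39 and 3.32, Uba7, the activating enzyme for Isg15, by 2.67 and 2.59, and Phf11d by 3.66 in siControl and at least 1.89-fold in siBach1. With silencing, the chemokine gene Cxcl10 was lower on both days, with changes of -2.30 and -1.94 (adjusted p = 0.0016 and 0.0070), and Ccl5, another chemokine gene, and Phf11d on day 2, with -2.09 and -1.79 (adjusted p = 0.0016 and 0.020). For Cxcl10 the siControl levels of day 2 were -2.11, -2.38 and -2.40 and those of siBach1 -4.78, -3.35 and -4.58, with no overlap. The further genes, like the members, thus held both kinds, those lower in siBach1 and those, such as Irgm2 and Uba7, with a day 2 silencing change of 0.34 and 0.28 that did not pass the test.

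Markers of leukocytes, which respond strongly to interferon, were checked because their presence would bear on such genes. Of 12 markers, 8 had a probe that could be tested, and the macrophage gene Adgre1 and the dendritic cell gene Itgax were detected on 0 arrays. Between days 1 marker was called higher and 1 lower in siControl cells, against 11.9% and 9.6% of all tested genes. With silencing 0 were called on either day, against 2.24% lower and 0.901% higher on day 0 and 0.78% and 1.78% on day 2. Counts this near the shares of all genes are no result about the markers, and the presence of leukocytes was not tested. The log2 of the summed level of the 12 markers lay between 6.4 and 6.67 in siControl and 6.63 and 6.87 in siBach1 on day 0, and between 6.77 and 7.01 and between 6.64 and 7.03 on day 2.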

How the data were processed

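Total RNA of the 12 samples was labelled with Cy3 and hybridised to Agilent one-colour mouse arrays. Per the labels and the file headers, the authors extracted spot intensity values with Agilent Feature Extraction (version 9.1 in the submitters' notes, 10.7.3.1 in the file headers). The deposited table of normalized log2 values was found to be log2 intensity minus the array's 75th percentile and minus each probe's median, and was used as an alternative. It also holds gene symbols, from which probes were named; 54 of 68 member probes had an accession in RefSeq (GRCm38.p6), all with the same symbol. Deposited fold changes and p-values were not used.

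Here, control spots and flagged spots were left out, spots of a probe averaged, and log2 of the processed signal taken minus the array's 75th percentile. Tests covered the 29664 of 56605 probes flagged well above background on each of the 3 arrays in 1 condition or more, and each of 15642 genes took its tested probe with the highest mean level. One fit over the 4 conditions was made with limma 3.58.1 in R 4.3.3, with 5 contrasts, Benjamini-Hochberg adjusted p over all tested probes; a call needed adjusted p under 0.05 and a fold of at least 2. "At least" folds set the brighter mean against the higher of the dim probe's signal and the lowest signal well above background on the array. An adjusted p given beside such a fold is that of the fitted change and not of the bound. In simulated data, 200 probes were changed by 1.5 on the log2 scale in siBach1 at day 2. The fit recovered 81.5% of them with silencing at day 2 and 79.5% between days in siBach1. For the difference of the silencing effects it recovered 64.5%. The simulated spread was independent between arrays, unlike the shared deviation of replicates described below.

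Members and lists were chosen with earlier results of these data known. Some genes of the lists are not reported here. Named were members called with silencing, the 8 largest rises and 3 largest falls between days, the 4 highest readings, the signalling members and called list genes. Replicates with the same number deviated together (correlations of 0.142 to 0.595 in 18 pairs, against -0.443 to 0.265 in 36 pairs with different numbers). Each number also had its own combination of slide and row, so pairing of the samples and place on the slides cannot be told apart. The values reported come from the fit without a block, which takes no account of this shared deviation. The fit with the replicate number as a block was an alternative. Replicates 1 and 2 lay on slide 1 and replicate 3 on slide 2. Alternatives were quantile normalization, normexp (offset 50), the deposited values, no or a stricter filter, replicate or slide blocks, the arrays of a comparison alone, the methods' t-test, no fold limit, the mean over probes, and each array left out.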

Additional observations from a re-analysis of the deposited data

Results flagged for a closer look

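The silencing change differed between the days for 1 member and 2 genes of the further lists, by the test of the difference. For Oas1a it was -0.02 on day 0 and -3.02 on day 2, a difference of -2.99 (adjusted p = 0.041), which was lost without any 1 of 10 arrays. Oas1a entered the test only because of siControl on day 2, so its difference is a description whatever its p. For Ccl5 it was -0.43 and -2.09, a difference of -1.65 (adjusted p = 0.043). For Samhd1, an inhibitor of the pathway that degrades nucleotides, it was -0.32 and 0.28, a difference of 0.59 (adjusted p = 0.020). Groups of 3 arrays are too small for a test of single outlying arrays.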

How the results depend on the processing

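No named result reversed under the alternatives or the 12 left-out arrays. Of 985 repeats of 44 named calls, 932 stayed past both the adjusted p and the 2-fold limit and 53 did not. On adjusted p alone, 1190 of 1283 repeats of 57 named results stayed past it. Both totals leave out the strict filter for members that it removed, so calls that ended by removal are not among those lost. The repeats reuse the same arrays and are not independent of each other. The number of members called on day 0 with silencing, 2, became 6 with no fold limit, 4 with quantile normalization, and 1 with normexp, with no filter, with the strict filter, with the arrays of the comparison alone and with the methods' t-test after adjustment, where Ifit3 was the call lost; it was 1 to 4 without single arrays (1 without any siControl day 0 array, siBach1 day 0 replicate 3 or siBach1 day 2 replicate 1 or 2, and 4 without siBach1 day 0 replicate 1). The day 2 count of 9 became 4 under the strict filter, which leaves 20 members, 6 with normexp (Ifit1, Oasl1 and Usp18 lost), 8 with the mean over probes (Oasl1 lost) and 3 with the methods' t-test after adjustment (Ifit1, Ifit3, Isg15, Oas1a, Oasl1 and Usp18 lost), and was 8 to 11 without single arrays. The counts between days, 25 in siControl and 18 in siBach1, became 13 and 10 under the strict filter and 17 and 12 with normexp, where 0 fell, and were 24 to 25 and 18 to 19 without single arrays. The 1 member whose silencing change differed between days became 3 with normexp, 0 with no filter, 2 with the replicate block, 4 with the slide block, 5 with the methods' t-test unadjusted and 0 after adjustment, and 0 to 2 without single arrays (0 without siControl day 2 replicate 1 or 2, siControl day 0 replicate 2 or 3, any siBach1 day 0 array or siBach1 day 2 replicate 1 or 2, and 2 without siControl day 0 replicate 1 or siControl day 2 replicate 3). The replicate block moved no other count of calls by over 1.5 times. Apart from filters and left-out arrays, the cause of these shifts was not tested. The 13 members below background on some arrays have the least precise folds.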
